A study of Sus scrofa with 15 samples.

Results

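The comparison described here set pig embryos made by somatic cell nuclear transfer (SCNT) in which *TDG* had been induced (SCNT4c-TDG) against SCNT embryos with no treatment (SCNT4c), both collected at the 4-cell stage. Its members are the 6 RNA-seq libraries that the labels place in these 2 groups, 3 in each, of 15 libraries in the table. Each library came from a pool of 30 embryos. All embryos were reconstructed from pig fetal fibroblasts (PFF), the cultured donor cells. For SCNT4c-TDG, the donor cells had been transfected with a doxycycline-inducible *TDG* vector and selected with puromycin, and the embryos received doxycycline from 40 to 72 h after activation. SCNT4c embryos were made from donor cells without this vector and received no doxycycline. No library of vector-carrying embryos without doxycycline, or of doxycycline alone, was analysed here. The effects of TDG, of doxycycline, of the selected donor cells and of library preparation therefore cannot be told apart in the values below. The other libraries of the series, from SCNT embryos treated with *KDM4A* mRNA and the EZH2 inhibitor GSK126 (SCNT4c-KG), from 8-cell SCNT embryos (SCNT8c) and from PFF, served as reference levels. Nothing in the labels says whether the 3 libraries of a group came from separate rounds of nuclear transfer. The p-values therefore measure the spread between pools. That spread was estimated over all 12 SCNT embryo libraries, so SCNT4c-KG and SCNT8c also enter it, and a gene that varied there can fail to pass.

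TDG, thymine DNA glycosylase, is a base excision repair enzyme. It removes thymine from mismatches with guanine, and it removes 5-formylcytosine and 5-carboxylcytosine, the bases that TET enzymes make from 5-methylcytosine. The empty site is then refilled with unmodified cytosine, which makes TDG the excision step of active DNA demethylation. In fertilized pig embryos, the genome is activated around the 4-cell stage, when stored maternal transcripts are cleared and embryonic transcripts take their place, and in cloned pig embryos this transition is known to come later. The question behind the comparison is what the transcriptome of cloned embryos looks like when *TDG* is supplied at this stage.

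Each deposited value is a read count after division by a library factor. For a given feature it can be compared across libraries, but it is not corrected for transcript length. Recovered reads ranged from 20460653 to 22530486 in SCNT4c and from 17757929 to 19564459 in SCNT4c-TDG. The share of reads on mitochondrial-encoded entries ranged from 0.909 to 1.39% in SCNT4c and from 8.26 to 9.42% in SCNT4c-TDG, with no overlap. Reads on assembled transcripts without a gene name made up 10.9 to 12.3% and 6.92 to 7.67%, and features above 0 numbered 24010 to 26003 and 26425 to 26605. These shares moved with the groups, and their part in the differences below was not tested. In these pools, a transcript carried by fewer embryos or cells and less RNA per cell cannot be told apart. Unless stated otherwise, values are means ± SD of 3 libraries, and the 6 values of a gene are given in the order of SCNT4c libraries a, b and c and SCNT4c-TDG replicates 1, 2 and 3. The letters are used because the numbers that the labels give to the SCNT4c samples contradict each other.

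Of 18942 features tested, 2969 (15.7%) were higher and 3331 (17.6%) were lower in SCNT4c-TDG, so that 33.3% changed in one direction or the other. A feature counted as changed when the Benjamini-Hochberg adjusted p of the limma fit was under 0.05 and the fold change on the log2(value + 1) scale was above 2. A total of 8444 features had an unadjusted p under 0.05. For 58.4% of the features, all libraries of one group lay above all libraries of the other. The median log2 difference over all features was -0.26. This split depended on the scaling and on single libraries. Without SCNT4c library a, b or c, the higher features outnumbered the lower, at 2584 and 2442, 2426 and 2420, and 2638 and 2611. With every library set to the same total over the entries that are not mitochondrial-encoded, 3779 features were higher and 2492 were lower, and the median difference moved by 0.39 on the log2 scale to 0.13. Changes smaller than this shift have no direction of their own. The lists below are read against the 15.7%, the 17.6% and the median of -0.26. The lists hold named genes, and of the named protein-coding genes 20.7% were higher and 16.1% were lower, with a median of 0.01. Against these shares, a list stands out less as raised. Each call was repeated in 12 other settings, with other pseudocounts, filters, scalings or tools, and in 6 fits that each left out 1 library. A call against SCNT4c of a single gene that was lost without 1 library is named with the gene, and a list count that moved by over 1.5 times without 1 library is given with the list.

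**Figure D1:**
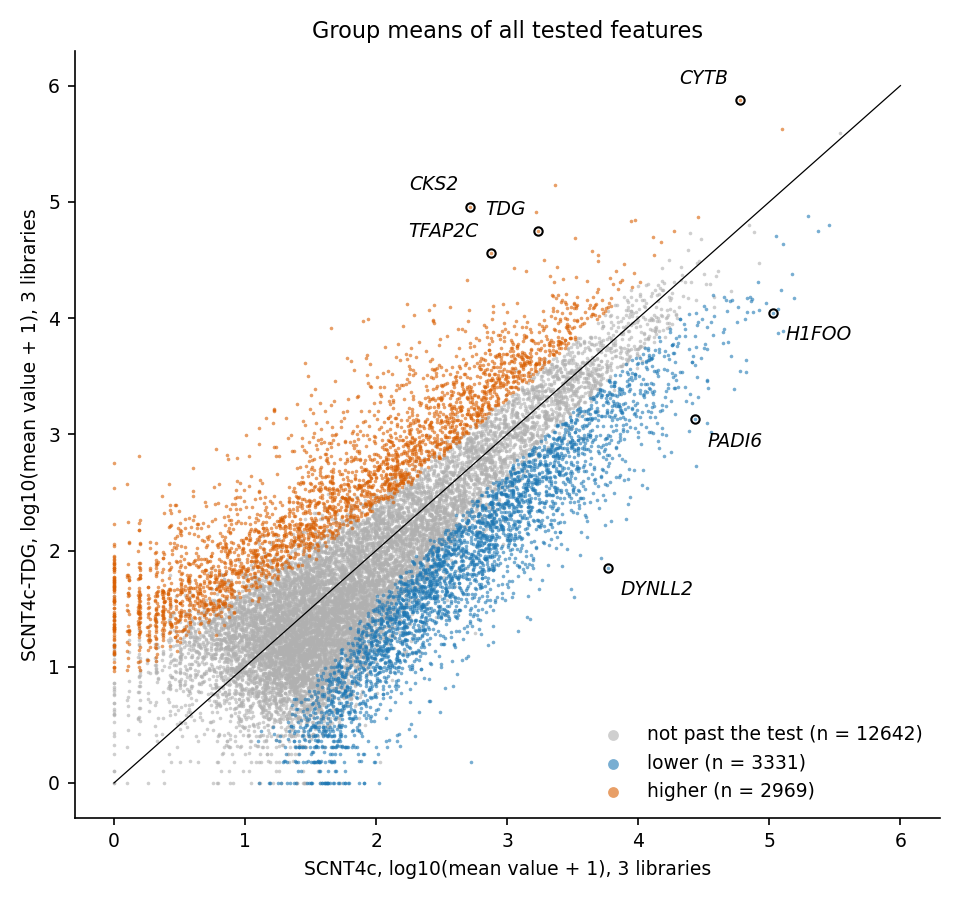
Mean value of each of the 18942 tested features in SCNT4c (x axis) and in SCNT4c-TDG (y axis), as log10(value + 1), with features that were higher in orange, lower in blue and not past the test in grey. *TDG*, *TFAP2C*, *CKS2* and *CYTB* lie far above the diagonal, and *H1FOO*, *PADI6* and *DYNLL2* lie below it.

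The targeted gene was measured first. *TDG* values were 1659.5, 939 and 2541 in SCNT4c against 56925, 59944 and 49857 in SCNT4c-TDG. All SCNT4c-TDG libraries lay above all SCNT4c libraries, and the lowest of them was far above the highest untreated one. Its log2 difference was 5.13 ± 0.31 (SE), with an adjusted p of 5.66e-08, and the means differed 32.4-fold. An exact two-sided permutation test over the 6 libraries gave p = 0.1, the smallest value that 3 against 3 can reach. The levels in the other groups were 4366 ± 436 in SCNT4c-KG, 2299.7 ± 229.5 in SCNT8c and 1151 ± 113 in PFF. *TDG* lies on the minus strand of chromosome 5, at chr5:80473233-80492295 (Sscrofa11.1), and the counts do not separate its own transcript from that of the vector. *GLT8D2*, a glycosyltransferase gene on the plus strand that overlaps the last bases of *TDG*, fell from 3249.9 ± 389 to 747 ± 50.4 (adjusted p = 0.00243). Whether reads were counted by strand is not given, so reads in the overlap cannot be assigned to one of them. The next gene after *TDG* on the chromosome, *C5H12orf73*, had values of 202 ± 35.5 and 204 ± 69.2 (adjusted p = 0.96). On the other side, *HCFC2* fell from 586 ± 83.5 to 264 ± 76.8 (adjusted p = 0.037), a call that was lost in 6 of 12 other settings and without any 1 SCNT4c library or SCNT4c-TDG replicate 1 or 2. None of these 3 neighbours rose.

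Among 17 tested genes of DNA methylation and active demethylation, which include *TDG* itself, 6 were higher and 3 were lower. Without SCNT4c library a or b or SCNT4c-TDG replicate 2, 1 was lower. *MBD4*, the other glycosylase that acts on thymine mismatched with guanine, rose from 7.51 ± 3.18 to 329 ± 72.2 (adjusted p = 9.36e-06). *DPPA3*, a maternal factor that shields methylated DNA from oxidation in the zygote, rose from 4897 ± 1167 to 34780.4 ± 3396 (adjusted p = 0.000115). *MBD1*, a methyl-CpG binding protein gene, rose from 8.37 ± 4.9 to 65.9 ± 33.2, a call lost in 2 of 11 other settings and without SCNT4c library a or c or any 1 SCNT4c-TDG replicate. *DNMT1*, the maintenance methyltransferase, stood at 5.95 ± 5.27 and 22.1 ± 0.787, near the detection limit (log2 difference 2.02, and 2.61 without SCNT4c library a). The adjusted p of *DNMT1*, 0.0492, was close to the threshold. The call was lost in 4 of 12 other settings and without SCNT4c library b or c or any 1 SCNT4c-TDG replicate. *DNMT3B*, a de novo methyltransferase, had means of 666 ± 129 and 224 ± 50.6 and did not pass (adjusted p = 0.0879), although its libraries did not overlap. Its SCNT8c level, which enters the estimate of the spread, was 385 ± 401. *ZBTB33*, which encodes the methyl-CpG binding protein Kaiso, fell from 398 ± 63.1 to 65.8 ± 10.9. Also lower were *GADD45A*, from 982 ± 728 to 214 ± 63.8 (log2 difference -1.89, and -2.59 without SCNT4c library c), a call lost in 1 of 12 other settings and without SCNT4c library a or b or SCNT4c-TDG replicate 2 or 3, and *UHRF1*, the reader of hemimethylated DNA, from 98.8 ± 45.7 to 15.9 ± 12.4, a call lost in 5 of 12 other settings and without any 1 SCNT4c library or SCNT4c-TDG replicate 1 or 2. *MBD1* and *UHRF1* were chosen after their values were seen. *TET1*, *TET2* and *TET3* were listed at 0 in all 15 libraries, PFF included, so the table holds no measurement of the enzymes that act before TDG.

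*TDG* and *MBD4* were counted in the list of DNA methylation and active demethylation and not among the base excision repair genes. Of the 27 other base excision repair genes tested, 3 were higher and 7 were lower (25.9%), and this balance turned with the scaling, to 7 higher and 5 lower with DESeq2 or with equal totals over the entries that are not mitochondrial-encoded. *UNG*, the main uracil glycosylase, had values of 4964, 7020.5 and 6888 in SCNT4c against 608, 686 and 584 in SCNT4c-TDG, and its log2 difference was -3.31 ± 0.37 (adjusted p = 1.09e-05). *NEIL3* fell from 7230.5 ± 2149.7 to 1716 ± 231 and *NEIL1* from 114 ± 55.2 to 14.4 ± 5.84, and both encode glycosylases of oxidized bases. The glycosylase gene *NTHL1* rose from 24.2 ± 9.09 to 137 ± 14, as did *POLE2*, a subunit gene of DNA polymerase epsilon, from 121 ± 73.9 to 556 ± 106. *APEX1*, the endonuclease that cuts the site left by TDG, did not pass, with means of 2556 ± 928 and 3453 ± 867 (adjusted p = 0.323). *XRCC1*, *PARP1* and *SMUG1* did not pass either. Leaving out SCNT4c library a or b or SCNT4c-TDG replicate 2 gave 4 lower.

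Factors known from embryonic genome activation mostly rose. Of 15 tested, 9 were higher (60%) and 1 was lower (6.67%), with a median log2 difference of 2.17. Part of this list was taken from genes the study chose with the help of these samples, so its direction is not independent evidence. *TFAP2C*, an AP-2 transcription factor of the early embryo and trophectoderm, had values of 1118, 544 and 605 in SCNT4c against 32218, 33428 and 42616 in SCNT4c-TDG. The groups lay far apart, and the log2 difference was 5.64 ± 0.31 (adjusted p = 2.96e-08). *LEUTX*, a paired-like homeobox gene switched on at genome activation, rose from 2267 ± 961 to 20604 ± 2445 (adjusted p = 1.5e-06). *SUPT4H1*, a transcription elongation factor, rose from 3415 ± 656 to 15261 ± 1452 and the translation initiation factor *EIF1AX* from 4290.3 ± 238 to 12962 ± 2477. *NFYB*, a subunit of the CCAAT-binding factor NF-Y, rose from 1291 ± 149 to 8338 ± 834 (adjusted p = 1.76e-06). The single member that fell was *DUXA*, another paired-like homeobox gene, from 13076 ± 3417 to 3531 ± 398 (adjusted p = 0.000534). *ZSCAN4*, *PNRC1* and *UBTFL1* had means under 3 in both groups, and *KLF17* was listed at 0 in all 15 libraries, so the table holds no usable value for these genes, which the study also names.

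Pluripotency and lineage factors were mixed. Of 13 pluripotency factors tested, 3 were higher and 2 were lower. *SOX2* rose from 14 ± 14.5 to 52.8 ± 12 (log2 difference 2.43, and 1.49 without SCNT4c library c), with an adjusted p of 0.0308 and a call lost without SCNT4c library b or c or any 1 SCNT4c-TDG replicate. *POU5F1*, the gene for OCT4, had values of 927, 98.7 and 6.64 in SCNT4c against 25.9, 23.8 and 30.6 in SCNT4c-TDG and did not pass (adjusted p = 0.26). *KLF4* rose from no read in SCNT4c to a mean of 14.3 ± 12.9 (log2 difference 3.52, and 4.26 without SCNT4c-TDG replicate 3). Its call was lost in 1 of 10 other settings and without SCNT4c-TDG replicate 1. The third member that rose is an entry named *NANOG*. The locus of that entry lies on chromosome 1, whereas the annotation places *NANOG* on chromosome 5, so no value is given for it. *OTX2* fell from 37250.2 ± 3897 to 7169 ± 512. The number higher was 1 without SCNT4c-TDG replicate 1. The count of lower members was 1 when SCNT4c library a or SCNT4c-TDG replicate 2 was left out. Among 15 trophectoderm and hypoblast factors, 2 were higher, *TFAP2C* and *GATA6*. *GATA6*, a hypoblast factor, had no read in any SCNT4c library and values of 437, 304 and 301 in SCNT4c-TDG, at least 418-fold above the level that 3 reads over the SCNT4c group would give. *CDX2*, the trophectoderm regulator, was under the filter, with no read in SCNT4c-TDG and a mean of 27.6 ± 22.5 in SCNT4c.

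**Figure D2:**
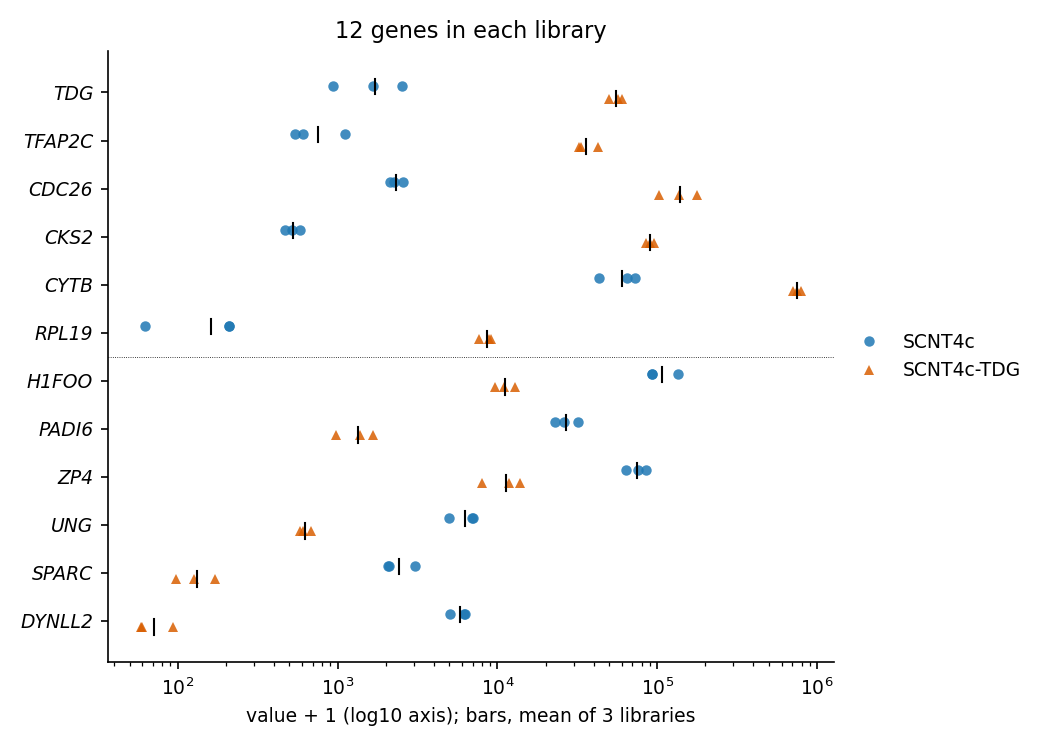
Values of 12 genes in the 3 libraries of SCNT4c (blue circles) and of SCNT4c-TDG (orange triangles), as value + 1 on a log10 axis, with short bars at the group means. The upper 6 genes were higher in every SCNT4c-TDG library, and the lower 6 were lower in every one.

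Maternal effect genes, whose transcripts the oocyte stores, fell more often than they rose. Of 19 tested maternal effect genes, 8 were lower (42.1%) and 3 were higher (15.8%), with a median of -0.88, and the summed value of the list ranged from 239973 to 264154 in SCNT4c and from 78106 to 91202 in SCNT4c-TDG. Without SCNT4c-TDG replicate 1, 1 was higher. *H1FOO*, the linker histone of the oocyte, had values of 135057, 92870.5 and 92764 in SCNT4c against 10947, 9619 and 12856 in SCNT4c-TDG, a log2 difference of -3.25 ± 0.54 and an adjusted p of 0.000338. *PADI6*, which oocytes need for their cytoplasmic lattices, fell from 26969.6 ± 4565 to 1342 ± 339.5 (adjusted p = 4.93e-07). *NPM2*, the histone chaperone that decondenses sperm chromatin, fell from 8384 ± 2711 to 413 ± 32.3, *TCL1B* from 2511 ± 185 to 142 ± 10.6 and *NLRP5*, a subcortical complex member, from 321 ± 36.5 to 78.7 ± 2.34. *OOEP*, of the same complex, did not pass, with means of 708 ± 133 and 795 ± 371. The 3 members that rose were *DPPA3*, *TCL1A*, from 30.4 ± 12 to 140.2 ± 46.8, a call lost without SCNT4c library c or SCNT4c-TDG replicate 1 or 2, and *CCNB3*, from 24.3 ± 15.4 to 112 ± 45.8 (log2 difference 2.32, and 1.69 without SCNT4c library a), a call lost without SCNT4c library a or SCNT4c-TDG replicate 1 or 3.

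Of the 7 genes of oocyte-secreted factors and the zona pellucida that could be tested, 2 were lower and none was higher by the limma test. At an unadjusted p under 0.05, 1 was higher, and edgeR and DESeq2 called 0 and 1 higher. Leaving out SCNT4c library b gave 1 higher. *ZP4*, a zona glycoprotein, had values of 85407, 63365 and 75580.0 in SCNT4c against 13890.0, 11824 and 8021 in SCNT4c-TDG (log2 difference -2.76 ± 0.29, adjusted p = 6.07e-06). *IZUMO1R*, the egg's receptor for sperm, fell from 335 ± 262 to 46.2 ± 12.8 (log2 difference -2.59, and -1.99 without SCNT4c library a). *GDF9* and *BMP15* were listed at 0 in both groups. Germline genes were divided, with 4 of 30 higher and 5 lower: *DAZL*, an RNA-binding protein of germ cells, fell from 3343 ± 698 to 303 ± 267 (log2 difference -3.79, and -4.48 without SCNT4c-TDG replicate 3), *MAEL* from 4642 ± 1219 to 382 ± 39 and the cohesin gene *SMC1B* from 32209 ± 6289.9 to 5927 ± 944, whereas *HENMT1*, which methylates piRNAs, rose from 12837 ± 2036 to 50204 ± 326. Other oocyte transcripts with large values that fell were *WEE2*, the oocyte kinase that holds CDK1 inactive, from 83899 ± 21862 to 11823 ± 636, and *KPNA7*, the importin alpha of oocytes, from 115607 ± 13024 to 12006 ± 541. *EIF4E1B*, the cap-binding protein of oocytes, fell from 6213 ± 1016 to 179.6 ± 36.5 with a log2 difference of -5.11 ± 0.57.

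The promoters of these genes differed in their number of CpG dinucleotides, the sites where DNA methylation and TDG act. Windows of 250 bases before the annotated gene start are printed, read from the RefSeq genome Sscrofa11.1 in the direction of transcription, with each CG in capitals. They were picked after the values were seen: *CDC26*, with many CpG, and *DPPA3*, with 1, rose, and *H1FOO*, *KPNA7* and *DAZL*, with few or none, fell.
CDC26 (chr1:253906660-253906909, minus strand, 27 CpG): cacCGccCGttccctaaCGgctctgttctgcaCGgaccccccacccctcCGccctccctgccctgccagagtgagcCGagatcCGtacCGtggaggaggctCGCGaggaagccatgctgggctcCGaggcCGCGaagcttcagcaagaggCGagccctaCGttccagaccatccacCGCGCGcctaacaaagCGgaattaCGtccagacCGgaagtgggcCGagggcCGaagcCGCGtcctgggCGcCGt
DPPA3 (chr5:62868132-62868381, minus strand, 1 CpG): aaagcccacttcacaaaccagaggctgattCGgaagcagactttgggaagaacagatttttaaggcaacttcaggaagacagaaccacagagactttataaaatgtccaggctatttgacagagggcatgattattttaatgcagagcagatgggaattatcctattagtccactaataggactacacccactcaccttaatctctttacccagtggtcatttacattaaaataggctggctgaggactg
H1FOO (chr13:68921241-68921490, plus strand, 0 CpG): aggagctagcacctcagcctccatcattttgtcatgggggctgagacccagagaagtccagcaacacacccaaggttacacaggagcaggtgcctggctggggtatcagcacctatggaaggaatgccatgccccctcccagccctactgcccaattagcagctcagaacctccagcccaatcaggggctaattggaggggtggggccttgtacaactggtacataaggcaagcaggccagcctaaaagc
KPNA7 (chr3:6201283-6201532, minus strand, 4 CpG): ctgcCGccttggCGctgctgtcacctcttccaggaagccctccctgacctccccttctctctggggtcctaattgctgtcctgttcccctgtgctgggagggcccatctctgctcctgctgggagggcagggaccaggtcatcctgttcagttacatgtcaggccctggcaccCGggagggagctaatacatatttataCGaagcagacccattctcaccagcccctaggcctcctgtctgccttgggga
DAZL (chr13:3783849-3784098, minus strand, 0 CpG): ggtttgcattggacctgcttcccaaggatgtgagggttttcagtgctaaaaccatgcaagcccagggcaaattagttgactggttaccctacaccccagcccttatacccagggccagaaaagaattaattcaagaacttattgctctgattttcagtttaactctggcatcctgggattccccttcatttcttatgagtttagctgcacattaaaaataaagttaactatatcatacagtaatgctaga

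Rises thus occurred at promoters with many CpG and with few. Over the protein-coding genes with such a sequence, the window from 250 bases before to 50 bases after the gene start held a median of 22 CpG in the 2124 genes that rose, 18 in the 1686 that fell and 19 in the 6625 that did not pass. Among genes that rose or fell more than 4-fold, the medians were 22 and 15. Of genes with 21 or more CpG in the window, 23.7% were higher and 14.6% were lower, and of genes with 0 to 2 CpG, 13.6% were higher and 16.6% were lower. Transcript length moved with the calls as well. In the shortest of 5 equal length classes, with a longest spliced transcript under 1799 bases, 30.7% were higher, against 16% to 19% in the other 4 classes. Without the ribosomal and oxidative phosphorylation lists, the share in the shortest class was 27.5%. The calls in both directions also moved with level, taken as the mean of SCNT4c-KG and SCNT8c. From the lowest to the highest of 5 equal classes of level, the share higher went from 12.2% to 28.1%. The share lower went from 6.9% to 25.3%. The shares by CpG and by length were not adjusted for level. In PFF, genes that rose had a median level of 604, genes that fell one of 448 and genes that did not pass one of 250.

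**Figure D3:**
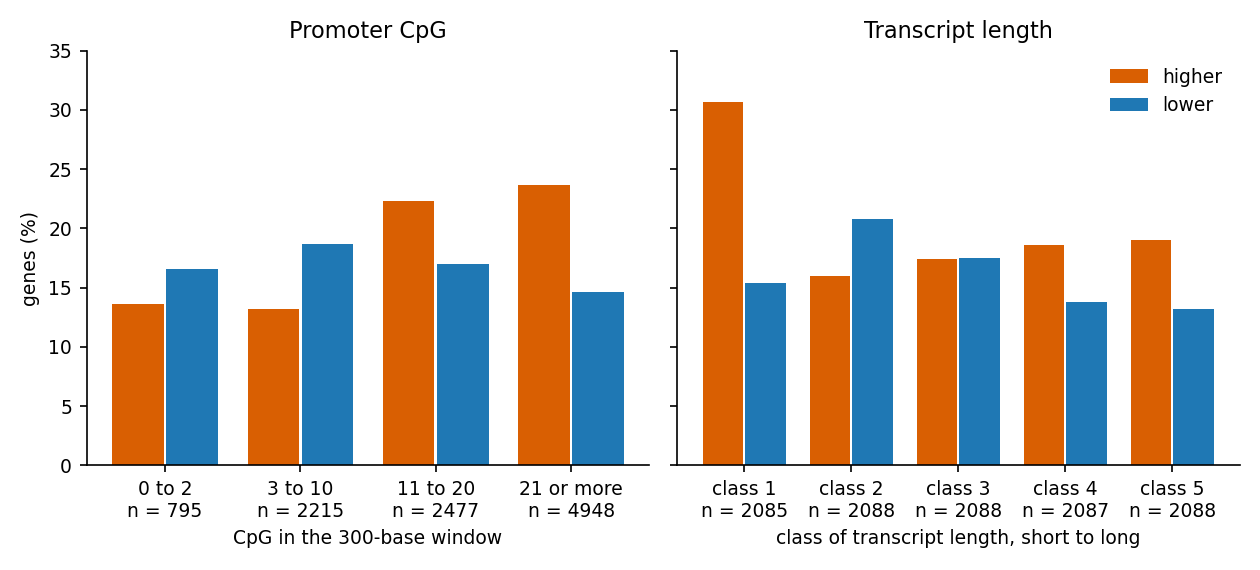
Share of protein-coding genes that were higher (orange) or lower (blue) in SCNT4c-TDG, by the number of CpG in the 300-base window around the gene start (left) and by 5 classes of transcript length from short to long (right), in percent of the genes tested in each class. The share of higher genes is largest at 21 or more CpG (23.7%) and in the shortest class (30.7%).

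Most genes of the cytosolic ribosome rose. Of 74 tested, 61 were higher (82.4%), 1 was lower and 12 did not pass, with a median log2 difference of 2.46. The number lower was 0 to 2 without any 1 SCNT4c library or SCNT4c-TDG replicate 3. The count ranged from 56 to 62 over the alternative settings. *RPL19* values were 61.5, 209.7 and 208 in SCNT4c against 9176, 8852 and 7704 in SCNT4c-TDG, with a log2 difference of 5.93 ± 0.43 and an adjusted p of 2.93e-07. *RPL31* rose from 83 ± 22.8 to 4573 ± 166 and *RPL13* from 40.8 ± 13.5 to 1276 ± 266. The member that fell was *RPL3*, from 5335 ± 2789 to 1776 ± 183 (adjusted p = 0.0161), a call lost in 2 of 12 other settings and without SCNT4c library b or c or SCNT4c-TDG replicate 3. *RPS3* did not pass, with means of 11073 ± 2529 and 7401 ± 714. The summed value of the list was 113142 to 187111 in SCNT4c and 356616 to 399282 in SCNT4c-TDG, and 1312910.0 to 1659190.0 in SCNT4c-KG. These transcripts are short, with a median length of 729 bases, a class in which 30.7% of genes rose. Ribosomal protein genes also have many processed copies. The study's methods kept uniquely mapped reads, so reads that match a copy equally well would not be counted, and single values are uncertain.

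Genes that build ribosomes and drive translation followed less uniformly. Of 81 ribosome biogenesis genes, 31 were higher (38.3%) and 9 were lower. The count of lower members was 14 when SCNT4c library a was left out. *NCL*, the nucleolar protein nucleolin, rose from 0.568 ± 0.492 to 66.8 ± 19.3 and the RNA helicase *DDX18* from 124 ± 6.57 to 1915 ± 31. *NPM3* fell from 6034 ± 586 to 387 ± 82.9, and the helicase genes *DDX55* and *DDX27* fell from 15077 ± 326 to 1008 ± 127 and from 7262 ± 2593 to 1001 ± 63.1. Of 51 translation factors, 16 were higher and 8 were lower. The cap-binding protein *EIF4E* rose from 7271 ± 470.5 to 20484 ± 3855, while its oocyte form *EIF4E1B* fell as given above. Of 15 tRNA synthetase genes, 2 were higher and 2 were lower: *RARS* rose from 0.277 ± 0.479 to 173 ± 34.4, and *EPRS* fell from 8879 ± 1695 to 1680.2 ± 154. Without any 1 SCNT4c library or SCNT4c-TDG replicate 1 or 2, 1 was higher. The side with more calls changed under at least 1 of 5 other scalings or tools for the lists of actin and tubulin cytoskeleton, base excision repair, the DNA damage response, DNA replication, fatty acid oxidation, germline and piRNA, H3K9 methylation, interferon response and RNA sensing, nucleotide and one-carbon metabolism, the spindle and the tricarboxylic acid cycle. With equal totals over the entries that are not mitochondrial-encoded, the number of higher members was larger in 46 and smaller in none of the 59 other lists, and the number of lower members was smaller in 42 and larger in none.

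**Figure D4:**
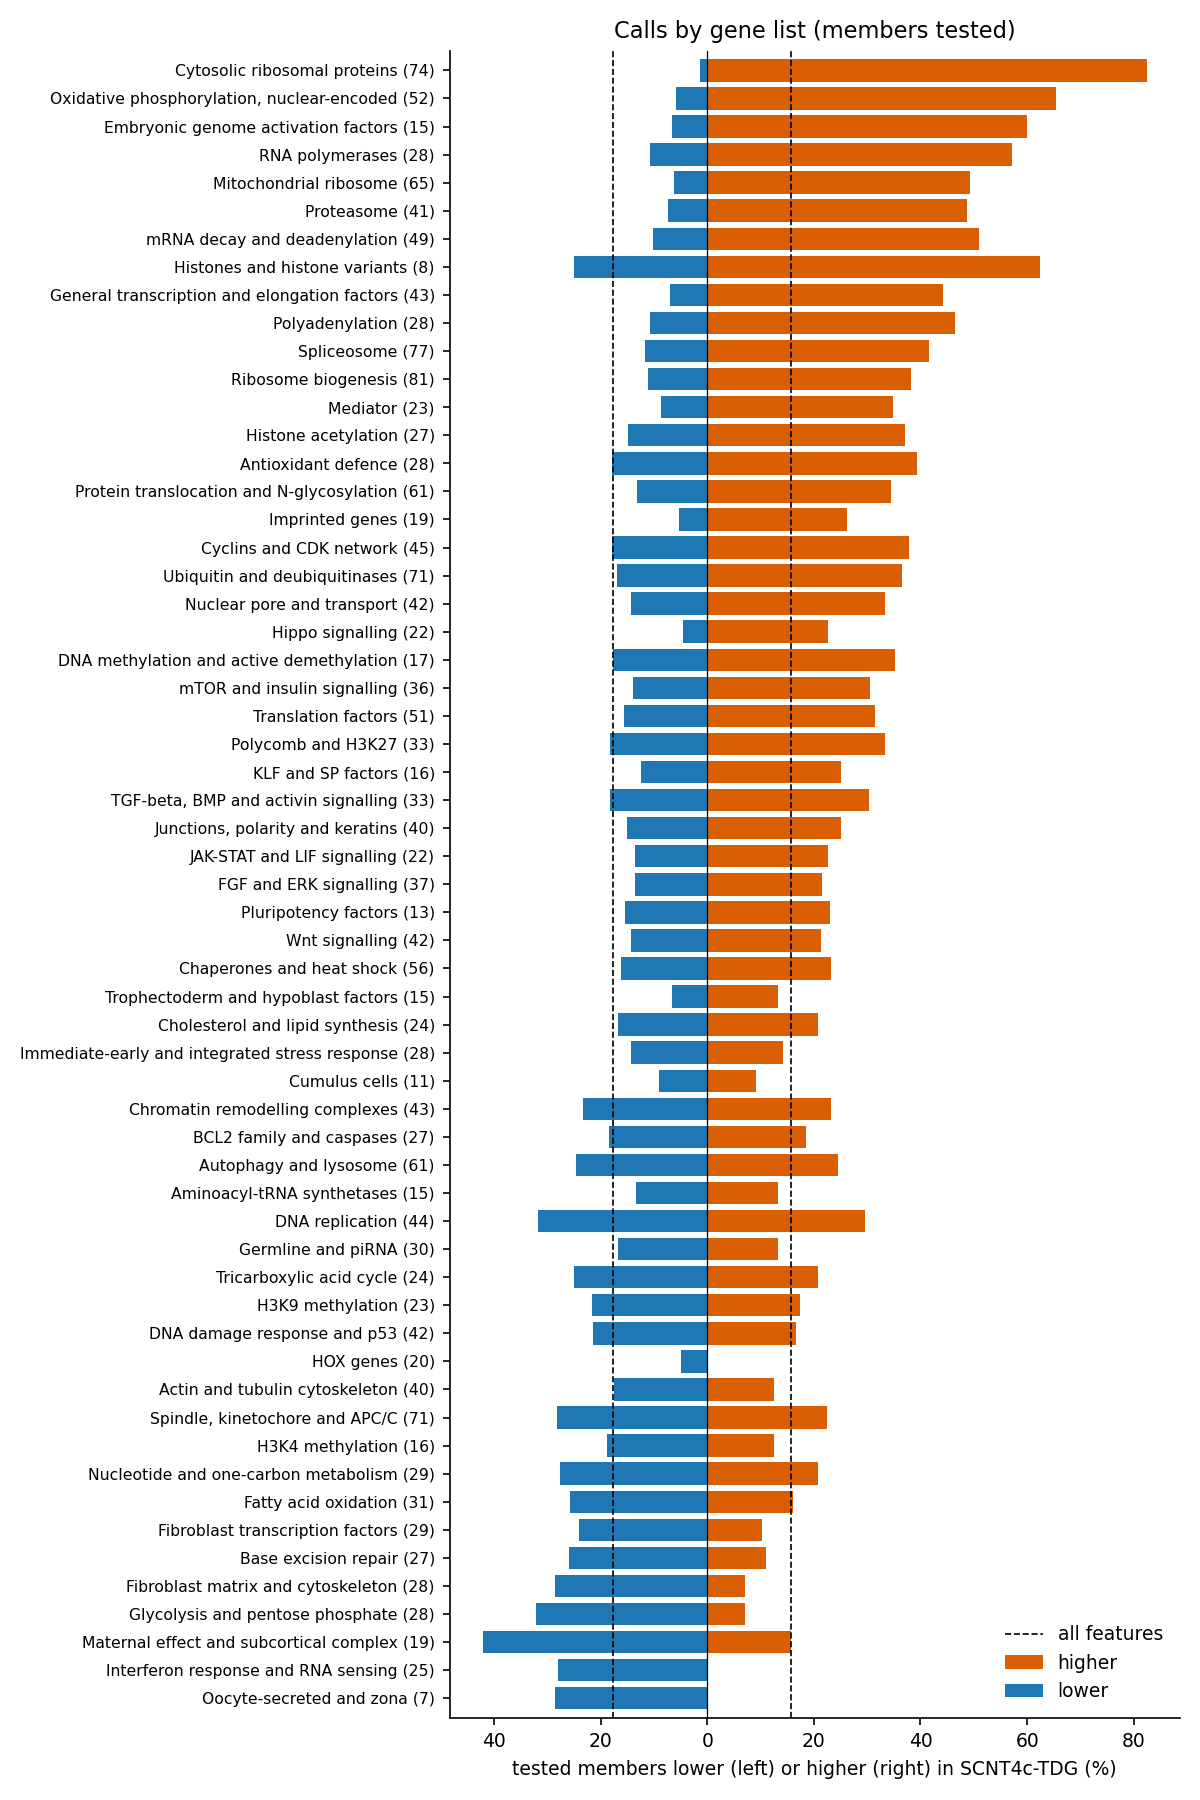
Share of the tested members of each gene list with at least 5 tested members that were higher (orange, to the right) or lower (blue, to the left) in SCNT4c-TDG, in percent, with the number tested beside each name; dashed lines mark 15.7% higher and 17.6% lower over all 18942 features. Cytosolic ribosomal proteins and the nuclear genes of oxidative phosphorylation reach furthest to the right, and maternal effect genes furthest to the left. Over named protein-coding genes, 20.7% were higher and 16.1% were lower.

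The 4 mitochondrial-encoded genes that could be tested were all higher. *CYTB*, a subunit of complex III, had values of 64275, 72278 and 43287 in SCNT4c against 710784, 791242 and 746487 in SCNT4c-TDG (log2 difference 3.68 ± 0.23, adjusted p = 7.76e-08). *ND5* rose from 125370.0 ± 23495 to 424946 ± 49926, *ND6* from 3305 ± 2097 to 48543 ± 7880.2 and *ND4* from 113 ± 19.3 to 806 ± 37, all subunits of complex I. The other 9 of the 13 were listed at 0 in all 15 libraries. The share of all values on these genes was 0.779 to 1.21% in SCNT4c and 7.8 to 8.87% in SCNT4c-TDG, against 1.59 to 2.17% in SCNT4c-KG and 1.3 to 2.1% in SCNT8c, so SCNT4c-TDG lay above every other group. Such a share is also a common measure of RNA quality, and whether it reflects the embryos or the libraries was not tested.

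Most nuclear genes of oxidative phosphorylation rose as well. Of 52 tested, 34 were higher (65.4%) and 3 were lower, with a median of 2.46. *NDUFA11*, of complex I, had values of 10.3, 23.6 and 13.3 in SCNT4c against 1729, 1745 and 1337 in SCNT4c-TDG (log2 difference 6.65 ± 0.44, adjusted p = 1.42e-07). *NDUFB4* rose from 47.9 ± 21 to 2856 ± 346 and *COX5B*, of cytochrome c oxidase, from 193 ± 84.7 to 10586 ± 1622. *SDHC*, of succinate dehydrogenase, fell from 1231 ± 521 to 73.1 ± 38.8 and *NDUFV1* from 999.9 ± 255 to 291 ± 101. Of 65 genes of the mitochondrial ribosome, 32 were higher (49.2%) and 4 were lower: *MRPL42* rose from 271 ± 78.5 to 9612 ± 617, and *MRPS14* fell from 12632 ± 2456 to 2303 ± 546. These lists too are short transcripts, with median lengths of 812 and 1331 bases.

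The pathways that feed the respiratory chain were mixed. Of 24 genes of the tricarboxylic acid cycle, 5 were higher and 6 were lower, with a median of -0.67. Leaving out SCNT4c-TDG replicate 2 gave 3 higher. *SUCLG1* fell from 2627 ± 164 to 254 ± 41.2 and *DLST* from 3447 ± 709 to 508 ± 38.3, and *DLD* rose from 48.4 ± 25.7 to 1013 ± 118. Of 28 genes of glycolysis and the pentose phosphate path, 2 were higher (7.14%) and 9 were lower (32.1%), and under 5 other scalings or tools 4 to 5 were higher and 7 to 9 were lower. *TKT*, transketolase, fell from 11135 ± 4240.3 to 2072 ± 236, *RPIA* from 33267 ± 20098 to 5456 ± 336 and *ALDOC* from 1707 ± 347 to 302 ± 136. *GAPDH*, often used as a reference gene, had values of 2709, 2748 and 3666 in SCNT4c against 1054, 921 and 553 in SCNT4c-TDG and fell (adjusted p = 0.0126), a call lost without SCNT4c-TDG replicate 3. *LDHA*, lactate dehydrogenase, was one of the 2 that rose, from 5.27 ± 5.52 to 371 ± 207 (log2 difference 6.07, and 6.75 without SCNT4c library c). Of 31 fatty acid oxidation genes, 5 were higher and 8 were lower, with *ACADM* rising from 1.94 ± 0.486 to 246 ± 79.5 and *HADH* falling from 5842 ± 456 to 533 ± 106. The number lower was 5 without SCNT4c-TDG replicate 2. Nucleotide and one-carbon genes were split, 6 higher and 8 lower of 29: *TYMS*, thymidylate synthase, fell from 9711 ± 424 to 1606 ± 177 and *MTHFD2* from 2749 ± 774 to 457 ± 7.25, and *DUT*, which removes dUTP, rose from 52.9 ± 25.7 to 1162 ± 168.

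Genes of the transcription machinery were higher more often than the 15.7% of all features and the 20.7% of named protein-coding genes. Of 28 RNA polymerase subunits, 16 were higher (57.1%) and 3 were lower. *POLR2K*, a small subunit shared by all 3 nuclear polymerases, had values of 61.5, 39.3 and 32.4 in SCNT4c against 6946, 8094 and 9408 in SCNT4c-TDG (log2 difference 7.53 ± 0.35, adjusted p = 6.64e-09). *POLR2L*, also shared, rose from 59 ± 30.2 to 1582 ± 63, and *POLR2A*, the catalytic subunit of polymerase II, rose from 45.8 ± 5.75 to 171 ± 40.5. The 3 members that fell belong to polymerases I and III: *POLR1E* fell from 14080.1 ± 2797 to 3169 ± 215, *POLR3D* from 5796 ± 529 to 2166 ± 279 and *POLR3K* from 19511 ± 573 to 2957 ± 259.5. Of 43 general transcription and elongation factors, 19 were higher (44.2%) and 3 were lower. The count of higher members was 12 when SCNT4c-TDG replicate 2 was left out. Without SCNT4c library a, 1 was lower. *GTF2B* rose from 145 ± 4.76 to 1491 ± 211, and *TAF12*, a TFIID and SAGA subunit, fell from 7319 ± 819.9 to 1542 ± 249. Of 23 Mediator subunits, 8 were higher and 2 were lower, with *MED10* rising from 123 ± 69.2 to 3526 ± 204 and *MED17* falling from 4419 ± 742 to 1090.3 ± 240.1.

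Genes of RNA processing and decay rose more often than they fell. Of 77 spliceosome genes, 32 were higher (41.6%) and 9 were lower (11.7%). The core snRNP proteins *SNRPF* and *SNRPD1* rose from 66.9 ± 34.1 to 3603 ± 669 and from 921 ± 117 to 13327 ± 2293, and *TXNL4A* from 63.5 ± 17.2 to 4304 ± 264. *HNRNPA1* and *HNRNPK*, RNA-binding proteins that also regulate splicing, fell from 93639 ± 17662 to 13485 ± 1124 and from 18908 ± 4122 to 2518 ± 88.2. Of 49 genes of mRNA decay and deadenylation, 25 were higher (51.0%) and 5 were lower. *TOB1*, an adaptor of the CCR4-NOT deadenylase, had values of 45.7, 15.7 and 31.6 in SCNT4c against 2274, 2101 and 2125 in SCNT4c-TDG (adjusted p = 9.42e-07), and *CNOT7*, a catalytic subunit of that complex, rose from 2807 ± 723 to 16132 ± 2004. *BTG4*, the maternal adaptor of CCR4-NOT, did not pass, with means of 1529 ± 122 and 3293 ± 2311 (adjusted p = 0.397). *ZFP36L2*, which binds AU-rich elements, had values of 1388, 156 and 105 in SCNT4c against 14.2, 34.5 and 29.8 in SCNT4c-TDG and fell, with a log2 difference of -3.48, and -2.34 without SCNT4c library a. Of 28 polyadenylation genes, 13 were higher and 3 were lower, and *PABPC1*, the cytoplasmic poly(A)-binding protein, rose from 474 ± 149.8 to 3287 ± 436. Leaving out SCNT4c library a gave 5 lower.

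Of 41 proteasome genes, 20 were higher (48.8%) and 3 were lower. *PSMA3*, of the core particle, rose from 254 ± 23.1 to 11772 ± 1192 and *PSMD7*, of the cap, from 8.88 ± 4.21 to 329 ± 81, whereas the cap gene *PSMD13* fell from 12984 ± 4257 to 2681 ± 257. Of 71 ubiquitin genes and deubiquitinases, 26 were higher (36.6%) and 12 were lower (16.9%). *OTUD4*, a deubiquitinase, had the largest rise of all named genes: no read in SCNT4c and values of 595, 649.7 and 448 in SCNT4c-TDG, at least 679-fold above the level of 3 reads over the group. *USP34* rose from 150.4 ± 45.7 to 4389 ± 693 and *UCHL5* from 46.9 ± 13.5 to 1929 ± 126. *USP5*, a deubiquitinase that the study followed as active in the donor cells, fell from 638 ± 193 to 190.0 ± 52.8 (adjusted p = 0.00197). *TRIM8*, followed for the same reason, had values of 71.8, 8.74 and 4.98 in SCNT4c against 22.6, 6.9 and 2.3 in SCNT4c-TDG and did not pass (adjusted p = 0.597).

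Of 56 chaperone genes, 13 were higher and 9 were lower. The number higher was 8 without SCNT4c-TDG replicate 2. *DNAJC19* rose from 179 ± 73.9 to 3625 ± 489, and *DNAJA1* and *CCT5* fell from 71336 ± 9856 to 15282 ± 2122 and from 13595 ± 3911 to 3481 ± 475. Of 61 genes of protein translocation and N-glycosylation, 21 were higher and 8 were lower, with *SAR1B* rising from 0.54 ± 0.468 to 149 ± 21.9 and *SEC24C* falling from 782 ± 209 to 104 ± 8.98. Of 61 autophagy and lysosome genes, 15 were higher and 15 were lower, and under each of 5 other scalings or tools more were higher (16 to 20) than lower (8 to 14). *MAP1LC3B* and *GABARAP*, the ubiquitin-like proteins that coat autophagosomes, rose from 2381 ± 774 to 27482 ± 1418 and from 13.5 ± 9.97 to 1392 ± 504. *SQSTM1*, the cargo receptor that binds them, fell from 1052 ± 297 to 122 ± 69.5 (adjusted p = 0.000295), as did the lysosomal glucosidase *GAA*, from 1539 ± 876 to 74.3 ± 11.5.

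Cell cycle genes held some of the largest rises. Of 45 cyclins and members of the CDK network, 17 were higher (37.8%) and 8 were lower (17.8%). *CKS2*, a small protein that binds cyclin-dependent kinases, had values of 519, 584 and 468 in SCNT4c against 90212, 84970.4 and 95797 in SCNT4c-TDG, with a log2 difference of 7.43 ± 0.26 and an adjusted p of 2.45e-10. *CCNA2*, cyclin A2, had values of 35.5, 28 and 19.9 in SCNT4c against 4397, 4039 and 3802 in SCNT4c-TDG, with a log2 difference of 7.18 ± 0.40 (adjusted p = 2.96e-08). Both genes were low in all untreated libraries and high in all induced ones. *CCNE1* rose from 189 ± 32.4 to 2028 ± 47.3 and *CDK1* from 3363 ± 144 to 22484 ± 3599.7, while *CCNB1*, cyclin B1, did not pass, with means of 21022 ± 5452 and 27389 ± 1683. The inhibitor gene *CDKN2B* fell from 6166 ± 371 to 893 ± 345 and *E2F2* from 152 ± 22.1 to 15.5 ± 1.34.

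Spindle, kinetochore and APC/C genes went both ways, 16 higher and 20 lower of 71. *CDC26*, a small subunit of the APC/C ubiquitin ligase, had values of 2245, 2577 and 2142 in SCNT4c against 177510.0, 136864 and 102832 in SCNT4c-TDG (log2 difference 5.87 ± 0.41, adjusted p = 1.91e-07). *MAD2L1*, of the spindle checkpoint, rose from 4457 ± 945 to 37709 ± 2510.5 and *CENPC* from 1.34 ± 1.21 to 291 ± 82.6. *BIRC5*, survivin, fell from 1244 ± 169 to 129 ± 24.5, *CENPO* from 13043 ± 664 to 1855 ± 146 and *ZWINT* from 2095 ± 905 to 347 ± 71. DNA replication genes were also divided, with 13 higher and 14 lower of 44. The count of higher members was 6 to 8 when SCNT4c-TDG replicate 1 or 2 was left out. *ORC2* rose from 1.95 ± 2.66 to 104 ± 21.6 (log2 difference 5.53, and 6.24 without SCNT4c library c) and *RFC5* from 317 ± 59.8 to 2592 ± 416, and the kinase gene *CDC7* fell from 715 ± 227 to 52 ± 9.11. *PCNA*, the sliding clamp, and *MCM2*, a helicase subunit, did not pass (adjusted p = 0.0877 and 0.0514). In the DNA damage list, 7 of 42 were higher and 9 were lower. Without SCNT4c library a or b or SCNT4c-TDG replicate 2, 4 to 5 were lower. *ATR* rose from 85.9 ± 19.2 to 450.4 ± 41.2 and *DDB2* fell from 1189 ± 93 to 179.5 ± 2.78.

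Chromatin genes moved in both directions. Of 8 histone genes and histone chaperones, 5 were higher and 2, *H1FOO* and *NPM2*, were lower. The variant histones *H3F3A* and *H2AFZ* rose from 2119 ± 784 to 22784 ± 3288 and from 14825 ± 1041 to 45304 ± 4745, and *CENPA*, the centromeric H3, from 6.04 ± 1.46 to 129.6 ± 15.9. Of 33 Polycomb genes, 11 were higher (33.3%) and 6 were lower (18.2%). *EZH2*, the H3K27 methyltransferase, rose from 333 ± 16.5 to 1124 ± 122, whereas *RNF2*, the H2A ubiquitin ligase, fell from 8483 ± 3053 to 3015 ± 283 and *PHF19* from 3807 ± 915 to 394 ± 6.34. Of 23 genes of H3K9 methylation, 4 were higher and 5 were lower. The demethylase genes *KDM3A* and *KDM4A* rose from 26 ± 20.1 to 795 ± 50.5 (log2 difference 5.25, and 4.49 without SCNT4c library a) and from 194 ± 103 to 775 ± 194, *KDM3B* fell from 1028 ± 455 to 248 ± 5.53, and the methyltransferase gene *SUV39H2* fell from 7152 ± 355 to 2482 ± 571.

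Of 16 genes of H3K4 methylation, 2 were higher and 3 were lower, among them *KMT2E*, which fell from 16679 ± 2722 to 3585 ± 488. Leaving out SCNT4c library b or c or SCNT4c-TDG replicate 1 or 2 gave 1 higher. Of 27 genes of histone acetylation, 10 were higher (37.0%) and 4 were lower. *KAT6A* and the deacetylase *SIRT1* rose from 243 ± 32.1 to 1349 ± 138 and from 728 ± 125 to 5339 ± 244. Of 43 genes of remodelling complexes, 10 were higher and 10 were lower, and under each of 5 other scalings or tools more were higher (11 to 13) than lower (7 to 9). *BAZ1A* rose from 0.291 ± 0.505 to 117 ± 28.3 and *SMARCA5* from 5275 ± 577 to 12077 ± 614, while *DPF2* fell from 12131 ± 1124 to 1048 ± 119.8 and *SMARCD2* from 1225 ± 269 to 142 ± 8.94. Among 144 zinc finger genes named ZNF, 38 were higher (26.4%) and 12 were lower (8.33%). The number higher was 25 without SCNT4c-TDG replicate 1 or 2. Of 19 imprinted genes, 5 were higher and 1 was lower. The count of higher members was 3 when SCNT4c-TDG replicate 1 was left out. Without SCNT4c library b or c or SCNT4c-TDG replicate 1 or 3, none was lower. *PHLDA2*, a growth-restraining placental gene, had values of 4.73, 3.5 and 6.64 in SCNT4c against 746, 543 and 966 in SCNT4c-TDG (adjusted p = 6.25e-06).

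Listed fibroblast markers fell more often than they rose. This did not extend to all protein-coding genes with high values in PFF. Of those at 1000 or more in PFF, 24.0% were higher and 18.4% were lower. Of those under 1 in PFF, 10.1% were higher and 18.2% were lower. Of 28 matrix and cytoskeleton genes, 8 were lower (28.6%) and 2 were higher (7.14%), with a median of -0.97. *SPARC*, a matrix glycoprotein, had values of 2105, 2074 and 3058 in SCNT4c against 125, 171 and 96.4 in SCNT4c-TDG (log2 difference -4.21 ± 0.47, adjusted p = 1.14e-05). *COL1A2*, a chain of type I collagen, fell from 2535 ± 282 to 449 ± 51.9 and *COL1A1* from 549 ± 241 to 155 ± 50.7. *VIM*, *FN1* and *THY1* did not pass. The members that rose were *TIMP2*, a metalloproteinase inhibitor, from 9.18 ± 4.07 to 994 ± 226, and *S100A4*, from 6.59 ± 3.09 to 184 ± 14.6. The summed value of the list was 10237 to 11926 in SCNT4c, 4484 to 5380.4 in SCNT4c-TDG and 5765370.0 to 6320060.0 in PFF, and its share of all values was 0.0573 to 0.0671% and 0.03 to 0.0362% in the embryo groups. Leaving out SCNT4c library a or any 1 SCNT4c-TDG replicate gave 4 to 5 lower. Of 29 fibroblast transcription factors, 3 were higher and 7 were lower: *TWIST1* fell from 254 ± 101 to 50.8 ± 21.9 and *EPAS1* from 434 ± 80.8 to 68.7 ± 18.9, *AHR* rose from 78.7 ± 39.7 to 403 ± 29.9, and *PRRX1* did not pass.

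Among 11 tested markers of the cumulus cells that surround the oocyte, 1 was higher and 1 was lower, and the list had a summed value of 4874 to 5060.5 in SCNT4c and 2474 to 4304 in SCNT4c-TDG. The number higher was 0 without SCNT4c library b or c or SCNT4c-TDG replicate 2 or 3. The lower member is 1 of 2 entries named *INHBA*, so no value is given for it. *PTX3* had no read in either group. Of 20 *HOX* genes tested, 1 was lower and none was higher by the limma test. At an unadjusted p under 0.05, 1 was higher, and edgeR and DESeq2 called 0 and 1 higher. The count of lower members was 0 to 2 when any 1 SCNT4c library or SCNT4c-TDG replicate 2 was left out. Without SCNT4c library a, 1 was higher. Of 25 interferon and RNA-sensing genes, none was higher by the limma test and 7 were lower (28.0%), with a median of -0.95, a balance that turned under 1 scaling. At an unadjusted p under 0.05, 3 were higher, and edgeR and DESeq2 called 2 and 3 higher. Leaving out any 1 of the 6 libraries gave 2 to 4 lower. The number higher was 1 without SCNT4c library c. *ISG15*, a ubiquitin-like interferon-induced protein, fell from 107 ± 51.2 to 22.2 ± 11.2, and *MAVS*, the adaptor of RNA sensors, had values of 95.4, 123 and 81.4 in SCNT4c against 10, 23 and 13.8 in SCNT4c-TDG and fell, a call lost in 1 of 12 other settings and without SCNT4c library a or b or SCNT4c-TDG replicate 1 or 3. *MX1* had means of 1750.5 ± 267 and 870.0 ± 182 and did not pass (adjusted p = 0.0514). With equal totals over the entries that are not mitochondrial-encoded, the balance turned, with 4 members higher and 1 lower.

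Of the 6 signalling lists, those of Wnt, FGF and ERK, Hippo and JAK-STAT signalling had shares higher of 21.4% to 22.7%, near the 20.7% of all named protein-coding genes. Of 33 genes of TGF-beta, BMP and activin signalling, 10 were higher (30.3%) and 6 were lower. The count of lower members was 2 to 3 when any 1 SCNT4c library or SCNT4c-TDG replicate 1 or 2 was left out. *TGFBR1*, a type I receptor, rose from 209.6 ± 59.4 to 1909 ± 317, *SMAD7* rose from 11.9 ± 1.54 to 134 ± 59.6, and *ID3* fell from 8196 ± 3638 to 1062 ± 251. Of 42 Wnt genes, 9 were higher and 6 were lower, with *FZD2*, a Wnt receptor, rising from 15.8 ± 10.9 to 138 ± 43.8 (log2 difference 3.26, and 2.65 without SCNT4c library c), and *WNT3* and *WLS* falling from 1065 ± 173 to 91.9 ± 19.8 and from 8308 ± 1232 to 1726 ± 277. Of 37 FGF and ERK genes, 8 were higher and 5 were lower. Without SCNT4c library c or SCNT4c-TDG replicate 1, 4 to 5 were higher. Leaving out any 1 of the 6 libraries gave 1 to 3 lower. *FGFR3* rose from 3.97 ± 5.5 to 262 ± 90.4 (log2 difference 6.34, and 7.27 without SCNT4c library a). Of 22 Hippo genes, 5 were higher and 1 was lower, and *LATS1* rose from 56.8 ± 37.7 to 278 ± 16.4 (log2 difference 2.58, and 1.85 without SCNT4c library a). The number lower was 0 without any 1 SCNT4c library or SCNT4c-TDG replicate 1 or 3. In JAK-STAT signalling, 5 of 22 were higher and 3 were lower. The count of higher members was 3 when SCNT4c library a or c or SCNT4c-TDG replicate 3 was left out. Without SCNT4c library c or SCNT4c-TDG replicate 3, 1 was lower. *IL6ST*, the shared receptor chain of LIF and interleukin 6, rose from 542 ± 181 to 2371 ± 197, and *IL6R* fell from 234 ± 137 to 23.5 ± 13.1. Of 36 mTOR and insulin genes, 11 were higher (30.6%) and 5 were lower, with *LAMTOR3*, of the lysosomal Ragulator complex, rising from 2426 ± 382 to 15722 ± 897 and *LAMTOR2* from 128 ± 55.3 to 2119 ± 465. Leaving out SCNT4c library a or b or any 1 SCNT4c-TDG replicate gave 1 to 3 lower.

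Antioxidant genes rose more often than they fell, and the counts of other stress and death genes were even. Of 28 immediate-early and integrated stress genes, 4 were higher and 4 were lower, and under 5 other scalings or tools 5 to 8 were higher and 3 to 5 were lower. *XBP1* rose from 1.95 ± 1.28 to 247 ± 46.1 and *ATF1* from 1341 ± 521 to 10512 ± 1116, and *ASNS*, asparagine synthetase, fell from 2254 ± 98.4 to 704 ± 105. Of 28 antioxidant genes, 11 were higher (39.3%) and 5 were lower. *SOD1*, superoxide dismutase, rose from 106 ± 32.4 to 2234 ± 485, *PRDX1* from 16.1 ± 3.67 to 649 ± 81.5 and *TXNRD1* from 65.3 ± 9.44 to 1069 ± 63.6, whereas *CAT*, catalase, fell from 3088 ± 808 to 279 ± 7.76. The number lower was 3 without SCNT4c library b or c or SCNT4c-TDG replicate 1 or 2. Of 27 BCL2 family and caspase genes, 5 were higher and 5 were lower, and under 5 other scalings or tools 5 to 7 were higher and 4 to 5 were lower. *DIABLO* and *CYCS*, mitochondrial proteins released in apoptosis, rose from 29 ± 15.1 to 3189 ± 592 and from 2177 ± 720.1 to 15852 ± 1382. *MCL1* and *BAX* were listed at 0 in all 15 libraries. Of 2736 listed genes found in the table, 198 were at 0 in every library, so a 0 in this table can be a gene the counting missed. Low values above 0 may be incomplete too: *EEF2*, a translation elongation factor gene, had a mean of 8.31 ± 6.04 in PFF. Whether such genes were counted in full was not tested.

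Epithelial and cytoskeletal genes moved both ways. Of 40 genes of junctions, polarity and keratins, 10 were higher and 6 were lower. *CDH1*, E-cadherin, had values of 23.7, 19.2 and 21.6 in SCNT4c against 1059, 1014 and 871 in SCNT4c-TDG (log2 difference 5.45 ± 0.45, adjusted p = 7.85e-07). *ATP1B3*, a subunit of the sodium pump, rose from 78.8 ± 25.2 to 9353 ± 703. *F11R*, a tight junction protein, fell from 6405 ± 595 to 1077 ± 212 and *CTNNA1*, alpha-catenin, from 7313 ± 2292 to 1377 ± 123. Of 40 actin and tubulin genes, 5 were higher and 7 were lower. The count of lower members was 3 to 4 when any 1 of the 6 libraries was left out. *ACTB*, beta-actin, rose from 342 ± 162 to 3564 ± 192 (adjusted p = 8.93e-06), and *TMSB10* from 2253 ± 305 to 12113 ± 3856, while *TPM4* fell from 3234 ± 1549 to 721 ± 130.5. Of 42 nuclear pore and transport genes, 14 were higher and 6 were lower: *RAN*, the GTPase that drives nuclear transport, rose from 8779 ± 1811 to 68288 ± 2281, *XPO5* rose from 11.7 ± 10 to 829 ± 186 (log2 difference 6.35, and 5.72 without SCNT4c library a), and *RAE1* fell from 51139 ± 10496 to 4751 ± 344. Sterol synthesis genes were mixed, 5 higher and 4 lower of 24. Without SCNT4c library a or c or SCNT4c-TDG replicate 1 or 2, 1 to 3 were higher.

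**Figure D5:**
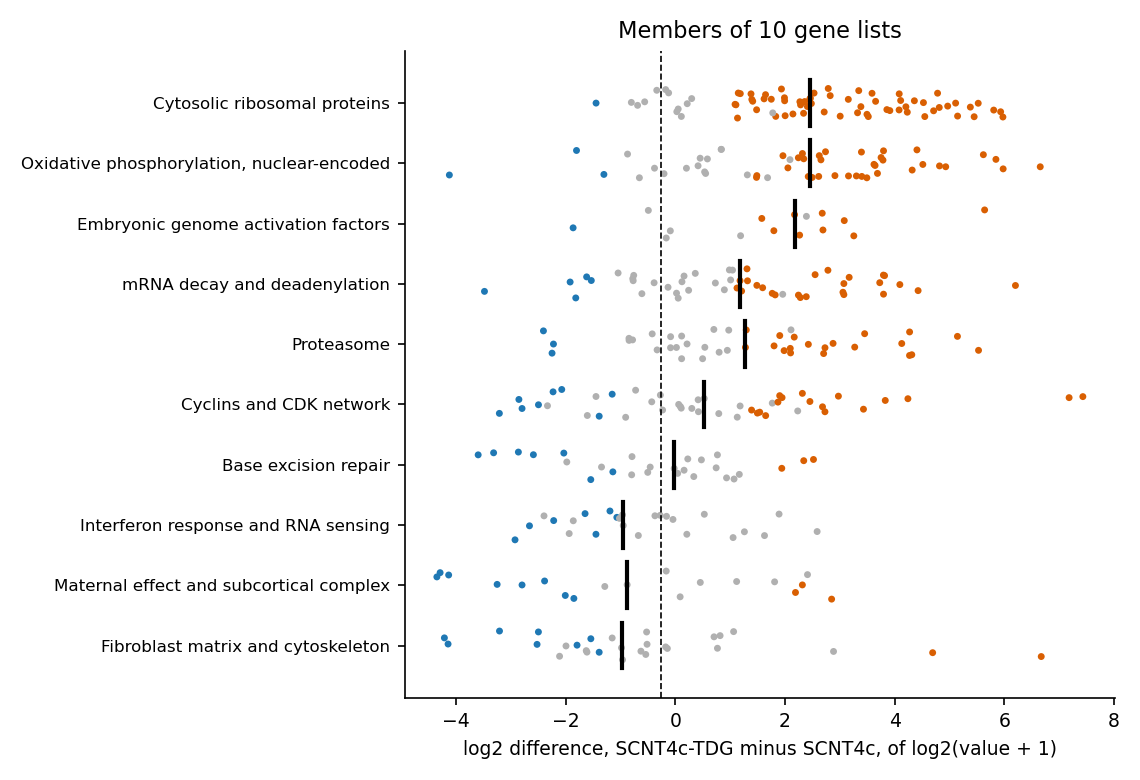
Log2 difference (SCNT4c-TDG minus SCNT4c) of every tested member of 10 gene lists, one point per gene, with black bars at the list medians, colours as in the calls (orange higher, blue lower, grey not past the test) and a dashed line at the median of all features (-0.26). The ribosomal and oxidative phosphorylation lists lie mostly above the line, and the maternal, fibroblast and interferon lists lie mostly below it. The calls of the interferon list changed side under 1 scaling. The median of named protein-coding genes was 0.01.

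By the size of the change alone, the named genes with the largest rises after *OTUD4* and *GATA6* were *TMSB15A*, a thymosin, which rose from 0.263 ± 0.455 to 371 ± 161, *POLR2K* and *CKS2*. *DUSP11*, an RNA phosphatase, had no read in SCNT4c and values of 169.8, 163 and 171 in SCNT4c-TDG, and *ADK*, adenosine kinase, rose from 1.63 ± 1.58 to 369 ± 174 (log2 difference 7.26, and 6.68 without SCNT4c library c). *FAM168B* rose from 3.02 ± 1.99 to 513 ± 149 and *STARD4*, a sterol carrier, from 6.25 ± 5.42 to 665 ± 359.8 (log2 difference 7.0, and 5.88 without SCNT4c library a). Log2 differences of the 12 largest rises lay between 7.0 and 9.13, and they depend on the pseudocount where the SCNT4c level is near 0. Of the 12 largest falls, the one at the head was *DYNLL2*, a dynein light chain, with values of 6234, 6193 and 5062 in SCNT4c against 57.7, 59.1 and 92.6 in SCNT4c-TDG (adjusted p = 9.98e-07). *BHLHE22*, a neural transcription factor, fell from 3249 ± 1448 to 38.8 ± 1.9, *ANXA6*, an annexin, from 177 ± 102 to 1.91 ± 2.12 (log2 difference -6.09, and -5.47 without SCNT4c-TDG replicate 3) and *TTC5* from 8092 ± 3514 to 184 ± 15.5. *EPSTI1*, *HDGF* and *RNF114* fell from 1197 ± 391 to 19.3 ± 9.18, from 485 ± 132 to 10.9 ± 8.21 (log2 difference -5.74, and -4.84 without SCNT4c-TDG replicate 2) and from 412 ± 137 to 7.62 ± 0.76. The other 5, *ARHGEF25*, *CA10*, *C6H19orf12*, *POU4F2* and *EPS8L3*, fell from means of 143 to 336 to means of 1.07 to 5.62. Log2 differences of the 12 falls lay between -6.39 and -5.33. The log2 difference of *CA10* was -6.16, and -7.12 without SCNT4c-TDG replicate 3, and that of *C6H19orf12* was -5.96, and -4.89 without SCNT4c-TDG replicate 1.

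Among changed genes with the largest values, *CALM2*, calmodulin, rose from 9509 ± 1980.2 to 69884 ± 7008. *FTL*, the ferritin light chain, fell from 284204 ± 24239.8 to 63532 ± 11778 (log2 difference -2.18 ± 0.25) and *CDV3* from 233330.0 ± 113029 to 55753 ± 2721. *AKIRIN2* fell from 154707 ± 31109.7 to 14972 ± 8443, *BTF3* from 127401 ± 6509 to 43809 ± 4520.3 and *PEX5L* from 121890.0 ± 6984 to 17338 ± 4349. *NPM1*, nucleophosmin, fell from 113194 ± 23206 to 50388 ± 3309.8, a call lost in 5 of 12 other settings and without SCNT4c library c, and *PTTG1*, securin, fell from 197798 ± 12608 to 76107 ± 25237, a call lost in 6 of 12 other settings and without any 1 SCNT4c library or SCNT4c-TDG replicate 1 or 2. The *BTF3* call was lost with quantile normalization.

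Long noncoding RNA genes and assembled transcripts fell more often than they rose. Of 9732 named protein-coding genes, 2013 were higher (20.7%) and 1563 were lower (16.1%), with a median log2 difference of 0.01. Of 1870 predicted long noncoding RNA genes, 115 were higher (6.15%) and 406 were lower (21.7%), with a median of -1.0. Of 6143 assembled transcripts, 640 were higher (10.4%) and 1175 were lower (19.1%), both where they shared a locus with a known gene (9.60% higher and 19.3% lower of 4991) and where they had one of their own (14.0% and 18.5% of 1152). Long noncoding RNA genes were lower more often than higher in every alternative setting, with 259 to 695 lower and 68 to 175 higher. Leaving out SCNT4c-TDG replicate 1 or 2 gave 70 to 76 long noncoding RNA genes higher. The number lower among long noncoding RNA genes was 259 to 261 without SCNT4c library b or SCNT4c-TDG replicate 1. The count of higher assembled transcripts was 343 to 419 when SCNT4c library b or any 1 SCNT4c-TDG replicate was left out. Without SCNT4c-TDG replicate 1, 774 assembled transcripts were lower. Of 321 pseudogenes, 15.6% were higher and 12.1% were lower, and of 32 small noncoding RNA genes, 18.8% were higher and 15.6% were lower. The largest rises among predicted genes were those of LOC106506288, from 0.554 ± 0.959 to 646 ± 148, LOC110257338 and LOC110259658, and the largest falls were those of LOC110260090, from 775 ± 199 to 21.4 ± 28.3 (log2 difference -6.46, and -4.91 without SCNT4c-TDG replicate 3), LOC102166259 and LOC100523356. By chromosome, the share of higher features ranged from 14.5% to 22.4% and that of lower features from 13% to 19.8% over the 18 autosomes and chromosome X.

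The direct comparison with SCNT4c-KG, another treated group collected at the same stage, showed where SCNT4c-TDG differed from it. Of 18942 features, 3070 (16.2%) differed between the 2 treated groups by the same rule. *TDG* was higher in SCNT4c-TDG, with a log2 difference of 3.67 ± 0.31 (adjusted p = 7.04e-06), and *TFAP2C* was higher, with means of 36087 ± 5686 and 14770.2 ± 3389.7 (log2 difference 1.30 ± 0.31, adjusted p = 0.00992), a call lost without SCNT4c-TDG replicate 3. *OTUD4* and *USP34* were also higher, with log2 differences of 3.40 ± 0.80 and 2.67 ± 0.36, and the call of *OTUD4* was lost with a pseudocount of 0.1 and without SCNT4c-TDG replicate 1 or 2. *ND5* was higher at means of 424946 ± 49926 and 141533 ± 24729 (adjusted p = 0.000475). Lower in SCNT4c-TDG were *UNG*, at 626 ± 53.3 against 3578 ± 965 (adjusted p = 0.000462) and *PADI6*, at 1342 ± 339.5 against 12307 ± 2549.8 (adjusted p = 3.97e-05). *POLR2L* was lower as well, with a log2 difference of -3.19 ± 0.40. For *SUPT4H1*, *GATA6* and *CDH1*, no difference between the treated groups passed the test (adjusted p = 0.615, 0.829 and 0.64), with log2 differences of 0.25 ± 0.29, 0.29 ± 0.71 and 0.36 ± 0.45.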

How the data were processed

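RNA was amplified with the SMARTer Pico cDNA kit from pools of 30 embryos and sequenced as pairs of 150 bases, per the labels and the study's methods. The authors deposited 1 table of HTSeq gene counts divided by a factor per library (unit: signal), made with CASAVA 1.8.2, Trimmomatic 0.39, STAR 2.5.3a and StringTie 2.1.2 on Sscrofa11.1, per the submitters' processing notes. Strand handling is not given in the sources used here. Of 43535 entries, 241 repeats were removed, which left 28224 known genes and 15070 assembled transcripts. All values above 0 were whole reads, within 0.01, after division by the step of their library, so read totals are known, and edgeR on these reads called 5528 features.

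limma 3.58.1 (R 4.3.3) was fitted with a mean-variance trend to log2(value + 1) of the 18942 features whose mean reached 10 in the 12 SCNT embryo libraries together, which share 1 estimate of the spread. Adjusted p means Benjamini-Hochberg over all features tested, and changed means adjusted p under 0.05 and over 2-fold. The fold change is on the log2(value + 1) scale and understates the change of low genes. Scripts were tested on simulated data. Named genes are *TDG* and its neighbours, genes the study names, the 12 genes (3 for LOC names) with the largest log2 rise and fall and the 10 with the highest values each way, among changed genes without overlap and a mean of at least 100, and for each of 60 lists its key members and up to 3 members each way by size of change. The members and lists were chosen with earlier results of these data known. The lists hold 2926 genes, of which 1993 were tested. Alternatives were other pseudocounts, filters and scalings, edgeR 4.0.16, DESeq2 1.42.0, the 2 groups alone, locus sums and leaving out each library. Promoters were read from the RefSeq genome of the same build. A few members of the lists are not reported here.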

Additional observations from a re-analysis of the deposited data

How the results depend on the processing

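*TDG*, the number of changed features and the number higher kept their direction, and stayed within 1.5 times for the numbers, in all 18 alternatives. Fitted on the 2 groups alone, 8882 features were changed, against 6300, and 5150 were lower, against 3331. Leaving out 1 library at a time gave 4496 to 5249 changed features, 2092 to 2638 higher and 2404 to 2648 lower, and a log2 difference of *TDG* of 4.75 to 5.47. Fewer libraries enter these fits. The balance turned without any 1 SCNT4c library and under other scalings or tools: equal totals gave 3512 higher and 2733 lower, edgeR 3067 and 2461, DESeq2 3787 and 3195, quantile normalization 3677 and 3403, and equal totals without mitochondrial-encoded entries, an alternative chosen after seeing the data, 3779 and 2492. Over the named genes, 84 of 4287 values from alternatives lost a call against SCNT4c, 23 gained one and none reversed. Against SCNT4c-KG, 216 of 4066 lost a call and 96 gained one. Without 1 library, the fold change of 25 of 220 changed named genes moved by over 1.5 times. Of the list and class counts, 266 of 2174 moved by over 1.5 times. The median number of promoter CpG, taken at over 4-fold, was 22 for genes that rose and 15 for genes that fell. No paired analysis was possible because the numbers given to the SCNT4c samples in the labels contradict each other. Without a filter on low values, over all 35910 features above 0, 6299 were changed, against 6300.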
